A study of Rattus norvegicus with 3 samples.

Results

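The histone genes measured in rat platelet RNA were 23 genes, chosen from 15037 named genes by their symbols on the array platform: linker histones (H1f followed by a digit), H2A, H2B, H3 and H4 genes, and the macroH2A genes. Each was represented by 1 feature. RefSeq lists 58 protein-coding rat genes whose symbols meet the same rule, and the other 35 had no named feature and were not analysed here. A further 11 histone genes are carried on the platform under older symbols that begin with Hist. They lie outside the rule and are described separately.

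Platelets are shed by bone marrow megakaryocytes, have no nucleus and no chromatin, and carry RNA from the parent cell. Control platelets (PLT), sorafenib-loaded platelets (SOR-PLT) and lenvatinib-loaded platelets (LEN-PLT) came from the blood of normal F344 rats, an inbred strain. Each group was a pool of the suspensions of 5 rats, and whether the groups shared rats is not given here. Sorafenib and lenvatinib are inhibitors of several receptor kinases. Each was applied outside the body at 10 µg for 30 minutes at 37 °C, and the loaded platelets were then washed. The labels leave it unsaid whether control platelets went through the same incubation and wash. Each pool was measured on 1 array, so there are no replicates, no errors and no tests, and every difference is between single arrays. The number of arrays limits the precision.

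Histones package DNA: H2A, H2B, H3 and H4 form the core of the nucleosome, and H1 binds the linker DNA between nucleosomes. Most histone genes are replication-dependent, made in S phase as intronless messages that end in a stem-loop in place of a poly(A) tail. Variant histones such as H2A.Z and H3.3 are made throughout the cell cycle from polyadenylated messages, and H2A.X comes in both forms of message. A separate set is made in testis or oocyte. Megakaryocytes copy their genome repeatedly without dividing. The labels do not say how the cDNA was primed, and whether messages without a poly(A) tail were primed as well as others was not tested.

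Values are log2 signals, and the level of background was taken as the 95th percentile of 1153 negative control features, 7.69. The signal of a feature depends on its probe sequence, so the readings of different genes are set against this level and not against each other. Of the 23 histone genes, 3 had a mean over the arrays that reached it, or 13.04%, and 1961 of the 15037 named genes did so, also 13.04%. The 3 were H2ax, H2az1 and H3f3b. All are somatic variants, and each lay above the 95th percentile of the negative controls on every array when that level was taken array by array. The negative controls have a long upper tail, and their 99th percentile, 13.05, lay above all 3 genes. For these 23 genes the share above background was thus near that of genes in general, which does not extend to the 11 histone genes with older symbols.

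The promoters of these 3 genes are shown, with that of Hist1h2bq, an H2B gene with an older symbol that read near the array's ceiling. Hist1h2bq was picked for having the highest signal of the 11 older-symbol genes. Of these 11, 6 were above background, and the promoters of the others are not shown. The 150 bases upstream of the annotated start are given 5′ to 3′ on the strand of the gene, from RefSeq on GRCr8, at chr8:53568568-53568717 on the plus strand for H2ax, chr2:229028945-229029094 on the plus strand for H2az1, chr10:101757637-101757786 on the minus strand for H3f3b and chr17:41869342-41869491 on the minus strand for Hist1h2bq. Capitals mark matches on either strand to 3 motifs, none of which overlaps another match. The first, CCAAT, is the box read by the factor NF-Y. The second, a common form of the TATA box, has the letters TATAAA. The third is the octamer known from H2B promoters, with the letters ATTTGCAT.
H2ax: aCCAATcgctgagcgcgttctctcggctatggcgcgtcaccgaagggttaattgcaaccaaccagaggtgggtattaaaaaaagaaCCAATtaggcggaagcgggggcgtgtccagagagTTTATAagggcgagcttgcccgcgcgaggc
H2az1: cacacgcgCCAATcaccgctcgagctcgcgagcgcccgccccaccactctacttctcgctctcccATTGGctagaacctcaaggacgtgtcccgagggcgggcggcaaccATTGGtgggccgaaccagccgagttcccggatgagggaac
H3f3b: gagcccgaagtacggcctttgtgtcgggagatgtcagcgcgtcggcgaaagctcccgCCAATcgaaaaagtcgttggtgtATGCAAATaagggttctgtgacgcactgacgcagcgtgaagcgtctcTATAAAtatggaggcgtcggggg
Hist1h2bq: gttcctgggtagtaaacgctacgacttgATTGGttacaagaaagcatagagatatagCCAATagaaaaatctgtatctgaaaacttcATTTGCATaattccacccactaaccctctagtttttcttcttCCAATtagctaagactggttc

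In the 250 bases upstream of the start, counted on either strand, the CCAAT box was found in 19 of the 22 histone genes matched to a RefSeq promoter, against 34.0% of 33469 promoters. The TATA box was found in 10 of 22, against 12.9%, and the octamer in 6 of 22, against 1.56%. The octamer was in all 3 H2B genes among the 22 (H2bc1, H2bc12 and H2bu1), in H2ac1 and H2ac25 and in H3f3b. Of the 11 genes with older symbols, 9 held the CCAAT box, 4 the TATA box and 4 the octamer. The octamer was in the H2B genes Hist1h2bd and Hist1h2bq but not in the H2B genes Hist1h2bg, Hist1h2bo and Hist3h2ba. Hist1h4m and Hist1h4b held none of the 3 motifs. H2bc1 and H2ac1, like H2bu1 and H2ac25, start close to each other on opposite strands, so the members of each pair share upstream DNA and are not separate cases. Of the promoters with signal printed above, that of H2az1 held the CCAAT box and neither of the other motifs within the bases shown. These matches describe the letters alone.

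Among the somatic variants, H2ax encodes H2A.X, which is phosphorylated beside DNA breaks. It read 11.12 in PLT, 11.16 in SOR-PLT and 11.17 in LEN-PLT. The 3 arrays lay within 0.05 of each other. H2az1 encodes H2A.Z, a variant placed near gene starts, and read 10.63 in PLT, 10.72 in SOR-PLT and 10.63 in LEN-PLT. The PLT and LEN-PLT values were exactly equal, and SOR-PLT was higher by 0.09. H3f3b encodes H3.3, the H3 variant deposited outside replication, and read 7.97, 7.94 and 7.94 in PLT, SOR-PLT and LEN-PLT. It lay just above the background level, while H2aj, an H2A variant at 7.60, 7.54 and 7.54, lay just below it. The arrays of both genes differed little from each other.

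The other somatic variants gave signals below background. H2az2, the second H2A.Z gene, read 5.41 in PLT, 5.54 in SOR-PLT and 5.41 in LEN-PLT. Macroh2a1 encodes a large H2A variant with an added macro domain, found on inactive chromatin, and read 5.44, 5.37 and 5.89. LEN-PLT was the high array there, by 0.45 over PLT and 0.52 over SOR-PLT. Macroh2a2, its paralog, read 3.01 on every array. Of the 7 somatic variants, 3 thus had signal above background and 4 did not, or 42.9% against 13.04% of all named genes. The genes are few, and no test was run on this share.

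**Figure D1:**
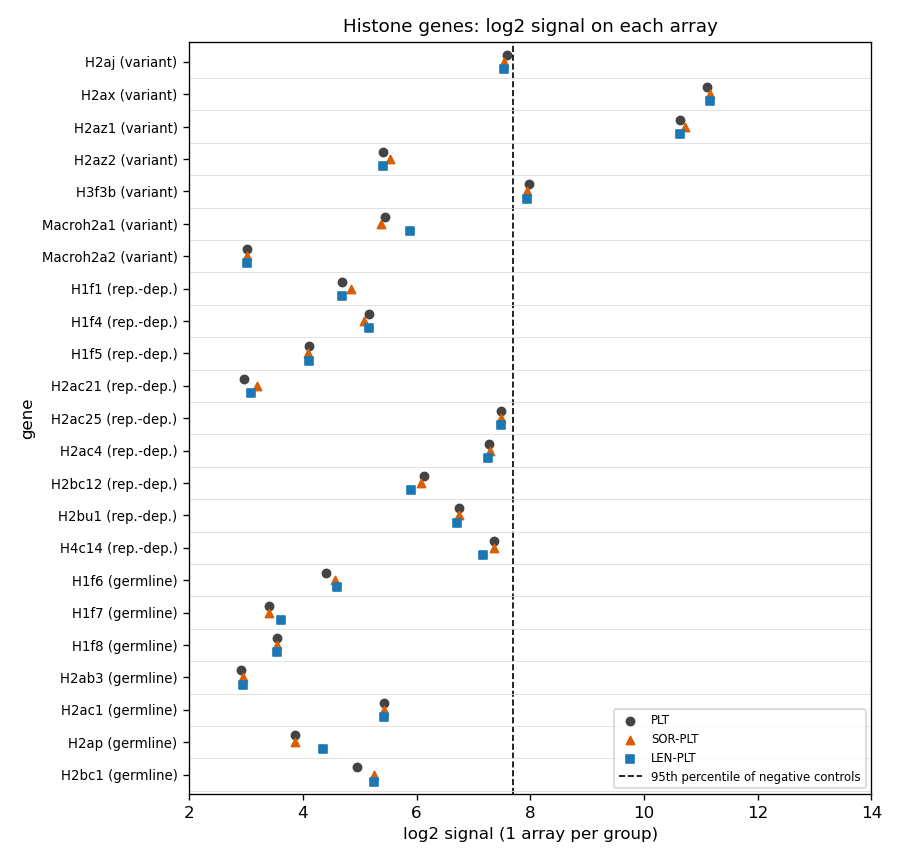
Log2 signal of the 23 histone genes (rows, grouped as somatic variants, replication-dependent and germline genes) on the control, sorafenib and lenvatinib arrays, 1 point per array. The dashed line is the 95th percentile of the negative controls, 7.69, and H2ax, H2az1 and H3f3b lie to its right on all 3 arrays.

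Of the 9 replication-dependent genes among the 23, 0 reached the background level, which for so few genes is near the 13.04% of all named genes. Replication-dependent genes with older symbols did reach it and are described after the comparisons. Of the core histone genes in this set, H2ac25 read 7.49 on every array, and H2ac4 read 7.27 in PLT, 7.28 in SOR-PLT and 7.26 in LEN-PLT. H4c14, an H4 gene, read 7.36, 7.36 and 7.16. These 3 lay less than 1 log2 unit under the background level, and LEN-PLT was the low array for H4c14. H2bu1 read 6.75, 6.75 and 6.71, and H2bc12 read 6.13, 6.08 and 5.90. LEN-PLT was the lowest array for both H2B genes, by 0.22 under PLT for H2bc12. H2ac21, an H2A gene, read 2.96, 3.19 and 3.08.

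The replication-dependent linker histones were low on all arrays. H1f4 read 5.16 in PLT, 5.07 in SOR-PLT and 5.16 in LEN-PLT. H1f1 read 4.69, 4.84 and 4.69, and H1f5 read 4.10, 4.09 and 4.10. For all 3 genes the PLT and LEN-PLT values were exactly equal and SOR-PLT stood off them, above for H1f1 and below for H1f4 and H1f5.

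Of the 7 germline genes 0 reached the background level, again near the 13.04% of all named genes. H2bc1 and H2ac1 encode the testis forms of H2B and H2A: H2bc1 read 4.96 in PLT and 5.25 in both drug arrays, and H2ac1 read 5.43 on every array. Of the germline linker histones, H1f6, made in spermatocytes, read 4.41, 4.56 and 4.60. H1f7, made in spermatids of mouse, read 3.41, 3.40 and 3.62. The oocyte gene H1f8 read 3.54 on every array. H2ap read 3.87 in PLT and SOR-PLT and 4.35 in LEN-PLT, and H2ab3, the gene of a short H2A known from mouse testis, read 2.90, 2.95 and 2.95. LEN-PLT was above PLT for 5 of these genes, below for 0 and equal for 2, with a median difference of 0.19. SOR-PLT was above PLT for 3, below for 1 and equal for 3, with a median of 0. Over all named genes LEN-PLT was above PLT for 5326, below for 5275 and equal for 4436, and the median was 0 for each drug. All 7 germline genes lie below the background level.

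Sorafenib-loaded platelets were set against control platelets to see which transcripts differ after loading. At least 2-fold apart, an absolute difference of 1 on the log2 scale, were 0 of 23 histone genes, against 0.512% of all named genes, so that the count is near the background share and is no result about histones. H2bc1 was the histone gene furthest from control, at 4.96 in PLT and 5.25 in SOR-PLT, and 20.0% of all named genes were at least as far. Of the 23 genes, 9 were higher, 7 lower and 7 exactly equal, against 5254, 5192 and 4591 of all named genes. The median difference of the 23 genes was 0, as it was over all named genes. The median absolute difference was 0.04 for the histone genes and 0.08 for all named genes. Exact ties made up 30.4% of the histone genes and 30.5% of all named genes. A tie can come from how the probes of a feature were summarised and is no sign of equal RNA.

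Lenvatinib-loaded platelets were set against the same control array. Here too 0 of 23 histone genes were at least 2-fold apart, against 0.539% of all named genes. H2ap was furthest, higher by 0.48, and 8.13% of all named genes were at least as far. Macroh2a1 followed, higher by 0.45, and H2bc12 was the lowest with a difference of -0.22. There were 8 genes higher, 6 lower and 9 equal, against 5326, 5275 and 4436 of all named genes. The median difference was 0 for the histone genes and for all named genes. The 3 genes above background differed from control by 0.05 (H2ax), 0 (H2az1) and -0.03 (H3f3b).

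**Figure D2:**
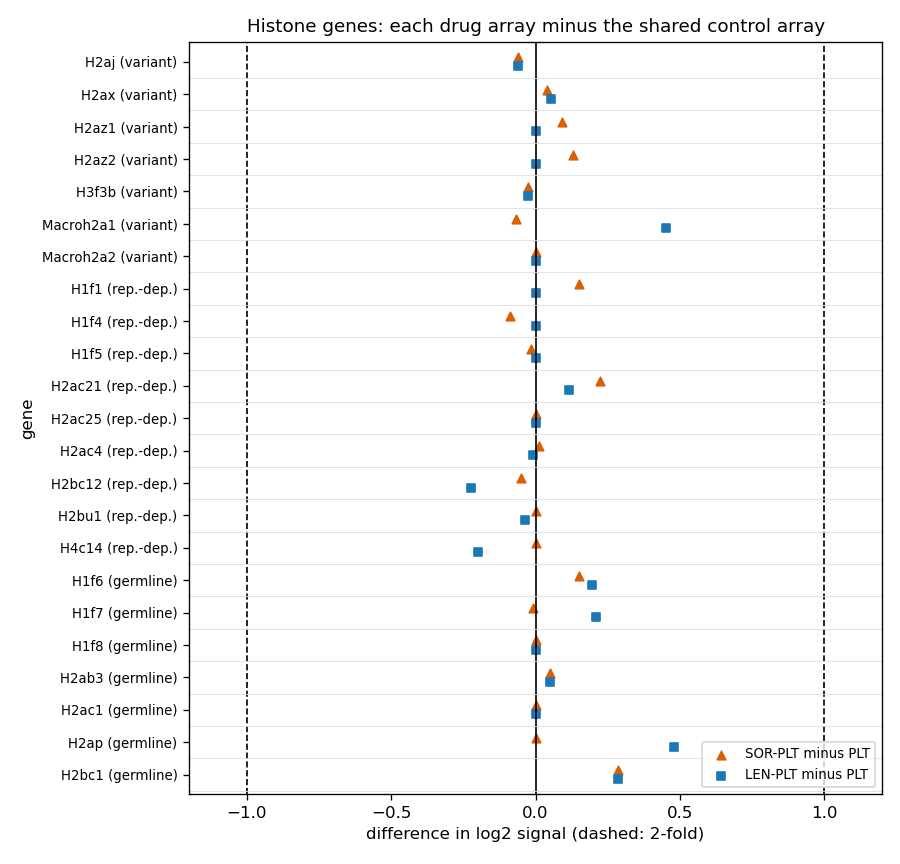
Difference in log2 signal of each drug array from the shared control array for the 23 histone genes (rows, in the order of the plot of signals). Dashed lines mark 2-fold, and every point lies between them, from -0.22 to 0.48.

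SOR-PLT was also set against LEN-PLT, loaded with equal drug mass for an equal time. Again 0 of 23 histone genes were at least 2-fold apart, against 0.299% of all named genes. Macroh2a1 was furthest, at 5.37 in SOR-PLT and 5.89 in LEN-PLT, and 5.40% of all named genes were at least as far. The 9 replication-dependent genes of the 23, all below background, read higher in SOR-PLT for 6, lower for 2 and equal for 1. Their median difference was 0.04. All named genes were higher for 5015, lower for 5198 and equal for 4824. The 11 genes with older symbols were higher for 3, lower for 2 and equal for 6, with a median of 0. Against control the same 9 genes were higher for 3, lower for 3 and equal for 3 in SOR-PLT, and 1, 4 and 4 in LEN-PLT. With 1 array for each drug, no interval can be given for any of these differences, so they do not show that the drugs act alike. Both drug differences share the control array: over the 23 genes both were above 0 for 5, both below 0 for 3, both 0 for 4, of opposite sign for 3, and 1 of them was 0 for 8.

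At a threshold of 1.5-fold the count of histone genes was also 0 in each comparison, against 4.43% of all named genes for sorafenib minus control, 5.05% for lenvatinib minus control and 3.89% for sorafenib minus lenvatinib. At 3-fold it was 0 against 0.0200%, 0.00665% and 0.0133% in the same order.

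Ties were common across the arrays as a whole. Of the histone genes, 4 (H1f8, H2ac1, H2ac25 and Macroh2a2) had the same value on all 3 arrays, 17.4% against 17.3% of all named genes. At least 2 arrays shared a value in 16 of 23 histone genes, 69.6%, and in 57.6% of all named genes.

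The 11 histone genes with older symbols were looked at after their values were seen. Their symbols are those of the clustered, replication-dependent kind. Of these, 6 reached the background level, 54.5% against 13.04% of all named genes. Over both sets of symbols 9 of 34 did, or 26.5%. These shares are a description with no test. Hist1h2bq, an H2B gene, read 19.39 on every array, close to the array's ceiling of 19.93, where differences cannot be read with confidence. Hist1h4m and Hist1h4b, both H4 genes, also had strong signal. Hist1h4m read 14.35 in PLT, 13.95 in SOR-PLT and 13.94 in LEN-PLT, and Hist1h4b read 13.53, 13.47 and 13.53. For Hist1h4m the difference from control was -0.40 with sorafenib and -0.41 with lenvatinib, while Hist1h4b was equal in PLT and LEN-PLT.

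Hist2h3c2, an H3 gene, read 8.09 in PLT, 8.40 in SOR-PLT and 8.57 in LEN-PLT, so that both drug arrays lay above control. The H2A gene Hist1h2af read 9.36 on every array, and the H2B gene Hist1h2bd read 9.03, 9.14 and 9.03. The remaining 5 were below background, at means from 2.83 for Hist1h2an to 6.54 for Hist1h2bo. None of the 11 was at least 2-fold apart in any comparison. That is near the 0.512% of all named genes with sorafenib, 0.539% with lenvatinib and 0.299% for sorafenib minus lenvatinib. Core histone genes of 1 family are near-identical in their coding parts, so a feature may also detect RNA of its relatives, and the values of single genes in both sets are uncertain. Cenpa, the histone H3 variant of centromeres, lies outside both sets and read 3.95, 3.96 and 4.02.

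**Figure D3:**
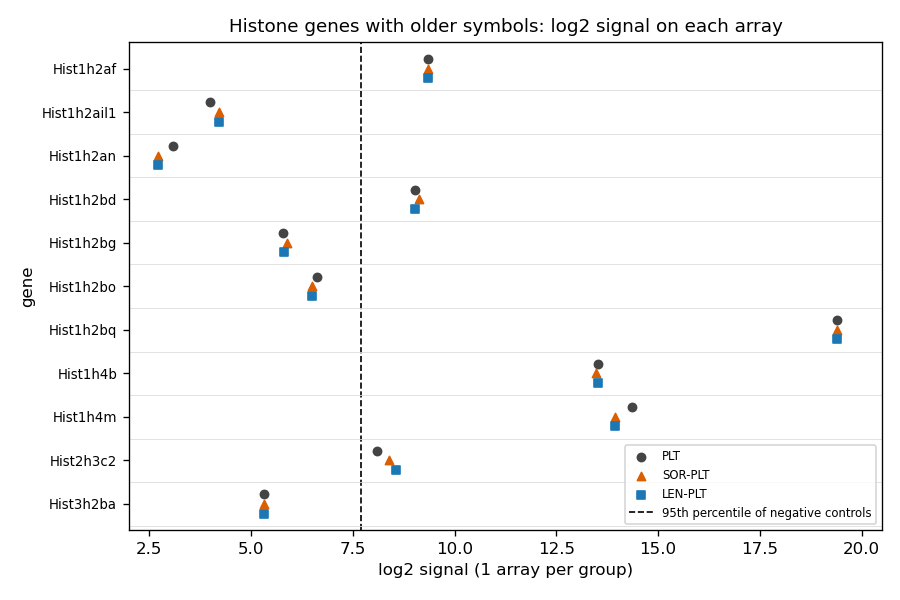
Log2 signal of the 11 histone genes with older symbols (rows) on each array, with the 95th percentile of the negative controls, 7.69, as a dashed line. Hist1h2bq lies at 19.39 on all 3 arrays, and for Hist1h4m the control array lies to the right of both drug arrays.

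Genes that act with histones were read from 4 lists, whose counts above background stand against 13.04% of all named genes. Factors that process histone messages were below background in 9 of 9 measured: Slbp, which binds the stem-loop, read 5.77 on every array, and Eri1, a nuclease that trims it, read 7.17 in PLT, 7.08 in SOR-PLT and 7.17 in LEN-PLT. S phase genes were below background in 20 of 20 measured. Pcna, the sliding clamp of DNA polymerase, read 6.94, 6.77 and 6.73, and Mki67, a marker of cycling cells, read 5.67, 5.12 and 5.73. In both lists the median difference from control was 0 for each drug. At least 2-fold apart were 0 genes, near the 0.512% of all named genes with sorafenib and 0.539% with lenvatinib.

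Of 23 histone chaperones measured, 7 had signal at or above background. Nap1l1, an H2A-H2B chaperone, read 18.52 in PLT, 18.48 in SOR-PLT and 18.49 in LEN-PLT. Anp32b read 16.17, 16.17 and 16.06, and Ubn2, of the complex that deposits H3.3, read 11.59, 11.59 and 11.75. These 3 genes varied by less than 0.2 over the arrays. Anp32a read 11.20, 10.95 and 10.45, so that LEN-PLT was the lowest array, and Npm1, nucleophosmin, read 10.19, 10.54 and 10.37. Nasp, a chaperone of H3-H4 and H1, was the sole member of the list 2-fold apart, with sorafenib against control. Of all named genes 0.512% were so far apart. Nasp read 5.83 in PLT, 4.66 in SOR-PLT and 5.37 in LEN-PLT, all below background. With sorafenib 3 chaperones were higher, 11 lower and 9 equal, with a median of 0. With lenvatinib 7 were higher, 12 lower and 4 equal, with a median of -0.01. Over all named genes 5254 were higher, 5192 lower and 4591 equal with sorafenib, and 5326, 5275 and 4436 with lenvatinib.

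Of 26 histone-modifying enzymes measured, 7 had signal at or above background and 0 were 2-fold apart in any comparison. That 0 is near the shares of all named genes, 0.512% with sorafenib, 0.539% with lenvatinib and 0.299% for sorafenib minus lenvatinib. Ezh1, a Polycomb methyltransferase of H3, read 14.79 in PLT, 14.88 in SOR-PLT and 15.21 in LEN-PLT. Its paralog Ezh2, the form of cycling cells, read 5.39, 5.81 and 5.54. Ezh1 was thus above background and Ezh2 below it on every array. Kmt5a, which methylates H4, read 11.47, 11.43 and 11.92. Dot1l, which methylates H3, read 10.78, 11.09 and 11.21, and Hdac5, a histone deacetylase, read 8.73, 9.22 and 9.22. Crebbp, an acetyltransferase, read 11.42, 11.22 and 11.25. The deacetylase Hdac9 read 10.63, 10.67 and 10.70, and Kat6a, an acetyltransferase, read 9.16, 9.05 and 9.16. Of the 7 enzymes above background, LEN-PLT was thus above PLT for 5, equal for Kat6a and lower for Crebbp. It was higher by 0.07 for Hdac9 and by 0.42 to 0.49 for Ezh1, Kmt5a, Dot1l and Hdac5. Of all named genes at or above background, LEN-PLT was higher for 808, lower for 768 and equal for 385. The largest differences from control on the list lay below background: Kat5 at -0.80 with sorafenib, Kdm5a at -0.66 and Setdb1 at 0.63 with lenvatinib. Over the list 9 were higher, 15 lower and 2 equal with sorafenib, and 13, 7 and 6 with lenvatinib. The medians were -0.04 and 0.02. All named genes split as 5254, 5192 and 4591 with sorafenib and as 5326, 5275 and 4436 with lenvatinib, with medians of 0.

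**Figure D4:**
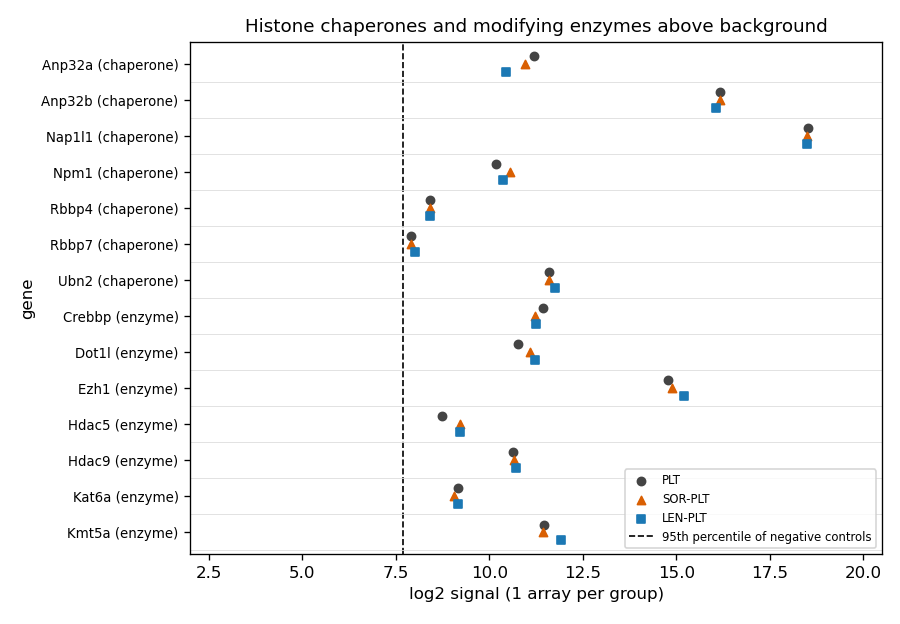
Log2 signal of the 7 histone chaperones and 7 histone-modifying enzymes whose mean reached the background level (dashed line, 7.69), 1 point per array. Nap1l1 lies between 18.48 and 18.52, and Anp32a is lowest on the lenvatinib array.

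The arrays carried platelet signal, with 11 of 12 platelet markers at or above background and Selp, at 6.54 on every array, below it. Nucleated blood cells contain histone messages, and their markers were read on the same arrays. Their counts stand against the 13.04% of all named genes that reached background. T cell, B cell and natural killer cell markers were at or above background in 0 of 8, 0 of 3 and 0 of 5. For lists so short that is near this share, and it does not show that such cells were absent. The background level was reached by 1 of 10 neutrophil markers (S100a9) and 2 of 7 monocyte markers (Lyz2 and Ccr2). Of 4 leukocyte markers 3 (Coro1a, Laptm5 and Cd53) reached it, while Ptprc, the common leukocyte antigen, read 7.63, 7.29 and 7.29. Red-cell markers reached it in 7 of 11. Summed as linear signal and put back on the log2 scale, red-cell markers read 20.54 in PLT, 20.53 in SOR-PLT and 20.57 in LEN-PLT, a sum carried by Hbb and by Hba-a1, which was at the ceiling on every array. Of the 11, LEN-PLT was above PLT for 7, below for 1 and equal for 3. At least 2-fold apart was 1 gene, against 0.539% of all named genes. Epb42 was higher by 1.11 and Ahsp by 0.93, both below the background level, and Slc4a1, above it, by 0.85. SOR-PLT was above PLT for 5, below for 3 and equal for 3. The monocyte markers summed likewise read 15.15, 15.39 and 15.36, nearly all of it Lyz2. The part of such cells in the histone signals was not tested, and in pooled RNA fewer cells of a type and less RNA per cell cannot be told apart.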

How the data were processed

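Total RNA of 3 pools was measured on 3 arrays. The deposited matrix holds log2 signals for 23188 features. No label names the background correction, probe summary or normalization used. The series value table, also log2, equalled the deposited matrix within 0.00005 on shared features and added control features. Its 1153 negative controls had a median of 4.13. Gene names came from the platform annotation, which gave 1 symbol for 15049 features, several for 0 and none for 8139. For genes with more than 1 feature, the highest by mean was taken. The 23 histone genes matched RefSeq (GRCr8) gene IDs, which changed 0 symbols. RefSeq coordinates are given for printed promoters alone, since no build is named for the array. Differences are log2 values of 1 array minus another, with no filter on low signal, computed with pandas 2.3.3 and numpy 2.4.6 and tested on simulated data. With 1 array per group no test was run. Members and lists were chosen with earlier results of these data known. Every histone gene could be named. From each other list, up to 4 members with the highest mean signal, up to 4 with the largest difference from control and any marker were open to naming, not all of which are named. Npm1, Ezh2, Hdac9, Kat6a and Cenpa were chosen after their values were seen. Alternatives were other scalings, thresholds, background levels, features and filters, and the 11 older symbols, added after seeing the data.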

Additional observations from a re-analysis of the deposited data

Results flagged for a closer look

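For 3 histone genes the sorafenib and the lenvatinib array lay on opposite sides of the control array, and the difference between the drugs was not tested, since each has 1 array. Macroh2a1 was at -0.070 with sorafenib and 0.45 with lenvatinib. H1f7 was at -0.0087 and 0.21. H2ac4 was at 0.013 and -0.0092. All 3 genes read below the 95th percentile of the negative controls.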

How the results depend on the processing

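The count of histone genes above background was 3 under median centring, quantile normalization, the mean of all features and the series value table, but 8 at the 90th percentile of the negative controls and 0 at the 99th, and 9 with the 11 older symbols added. The counts of 2-fold differences were 0 under every alternative run, 1.5-fold and 3-fold thresholds included. Each histone gene has 1 feature, and the series value table equals the deposited matrix within 0.00005. Taking the mean of all features or the series value table therefore could not change any of these counts. A 3-fold threshold or a filter on signal likewise could not raise a 2-fold count of 0. Median differences of 0 moved little. For sorafenib minus control they were -0.0083 with median centring, 0.036 as a mean, 0.041 over the genes above background and 0.027 without ties. For lenvatinib minus control they were -0.011 with median centring, 0.056 as a mean and 0.051 without ties. For sorafenib minus lenvatinib they were -0.020 as a mean and 0.022 without ties, of opposite sign. Median centring put all named genes at the same -0.0083 and -0.011. Fewer genes enter without ties or above background, and the cause of the other shifts was not tested. No paired analysis was possible because each group has 1 array. Signal limits the histone results: 20 of 23 genes lie below background.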
